A study of Rattus norvegicus with 10 samples.

Results

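The genes described here encode the nuclear subunits of the mitochondrial respiratory chain and ATP synthase, measured by polyA RNA sequencing of rat knee cartilage. Members were chosen by symbol: those that begin with Ndufa, Ndufb, Ndufc, Ndufs, Ndufv, Uqcr, Cox4 to Cox8 or Atp5, together with Sdha, Sdhb, Sdhc, Sdhd and Cyc1, and without Cox6a2 and the Ndufaf assembly factors. This rule found 83 of the 17419 transcripts in the table. They comprised 35 for complex I, 4 for complex II, 9 for complex III, 18 for complex IV and 17 for complex V. Ndufa4 and Ndufa4l2 were set with complex IV, to which the Ndufa4 protein is assigned in spite of its name. Among the members, 4 are not subunits: Cox7a2l is a supercomplex assembly factor, Cox6c-ps1 is a pseudogene, Atp5if1 is an inhibitor of ATP hydrolysis and Atp5s is a coupling factor.

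The 10 libraries came from 4 groups, all aged 5 months by their labels. HC was untreated wild-type cartilage (2 libraries). OAC was cartilage taken 4 weeks after an injection of papain and L-cysteine, which damages the cartilage matrix and models osteoarthritis, with no vector (3 libraries). SHAM (3 libraries) and KT (2 libraries) were both taken 10 weeks after papain and L-cysteine, and both received AAV-DJ vectors at week 4: SHAM received AAV-DJ-GFP, and KT received AAV-DJ-Klotho with AAV-DJ-TGFBR2. SHAM therefore differs from OAC in time after injury as well as in vector, and those effects cannot be told apart. The labels give neither strain nor sex and do not tie any library to an animal, so a p-value here measures the spread between libraries alone, and that spread may be technical.

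Values are FPKM (fragments scaled to transcript length and to the reads of the library), so levels of different genes can be set side by side. Depth recovered from the FPKM steps was about 52400000 to 70900000 reads a library, of which 58.6% to 64.4% lay in the listed transcripts. Klotho (Kl) was at 14.2 and 10.3 FPKM in the KT libraries and at most 0.073 FPKM in the other libraries. Tgfbr2 was at 42.8 and 30.7 FPKM in KT, inside the 24.2 to 54.8 FPKM of the other groups. All 11 chondrocyte markers (Col2a1, Acan, Sox9 and others) were above 0 in each library, with summed levels of 8626 to 22295 FPKM. Run tags in the file headers are not tied to libraries by the labels, so no value within a sequencing run was computed and run and group cannot be told apart. The libraries HC 1 and SHAM 3 stood apart in skeletal muscle transcripts: 29 muscle markers summed to 37965 FPKM in HC 1, 7246 FPKM in SHAM 3 and 243 to 1898 FPKM in the other 8 libraries.

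The respiratory chain sits in the inner mitochondrial membrane. Complex I takes electrons from NADH and complex II takes them from succinate; ubiquinone carries them to complex III, cytochrome c carries them to complex IV, and complex IV passes them to oxygen. Protons pumped by complexes I, III and IV drive ATP synthase, complex V. Mature cartilage has no blood vessels, has little oxygen, and makes much of its ATP by glycolysis. Skeletal muscle is rich in mitochondria and has its own forms of several complex IV subunits.

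Nuclear genes of the chain are known targets of nuclear respiratory factor 1 (NRF1) and of ETS-family factors such as GABP, so the promoters of the members were searched for both motifs. RefSeq promoters of the rat assembly GRCr8, from 250 bases before to 50 bases after the first listed start of each gene, were found for 69 of the 83 members. The NRF1 motif GCGCATGCG, on either strand, was present in 6 of 69 member promoters (8.70%), against 270 of 8717 tested genes (3.10%) and 455 of 27457 promoters in all (1.66%). The ETS motif CCGGAAG, on either strand, was present in 20 of 69 (29.0%), against 17.6% of tested genes and 9.22% of all promoters. Both were present in 2 member promoters, Atp5me and Atp5mg. The 6 windows with the NRF1 motif are shown in full, and the windows of Sdhb and Cox8a are shown as ETS examples: HC 1 was higher than HC 2 for Sdhb and lower for Cox8a. Capitals mark 1 match of the motif in each. The window of Ndufa11 holds a second copy from -91 that overlaps the marked one, and matches on the other strand from -96 and -90. Overlapping matches on the other strand also start at -55 in Atp5mc2, -75 in Atp5me and -58 in Atp5po. Positions count from the start site, and the FPKM table itself uses the older build rn6.
Ndufa11 (NRF1 at -97, GRCr8 chr9:1637501-1637541, plus strand): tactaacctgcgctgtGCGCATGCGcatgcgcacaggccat
Uqcrc1 (NRF1 at -39, GRCr8 chr8:118468168-118468208, plus strand): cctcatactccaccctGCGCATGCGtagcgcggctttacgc
Atp5mc2 (NRF1 at -56, GRCr8 chr7:135678250-135678290, minus strand): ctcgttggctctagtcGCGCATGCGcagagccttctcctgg
Atp5me (NRF1 at -76, GRCr8 chr14:1464768-1464808, plus strand): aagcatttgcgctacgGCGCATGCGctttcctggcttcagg
Atp5mg (NRF1 on the other strand at -244, GRCr8 chr8:54130627-54130657, minus strand): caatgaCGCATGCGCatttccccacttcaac
Atp5po (NRF1 at -59, GRCr8 chr11:44657518-44657558, minus strand): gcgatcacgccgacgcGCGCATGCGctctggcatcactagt
Sdhb (ETS at -108, GRCr8 chr5:158547809-158547849, plus strand): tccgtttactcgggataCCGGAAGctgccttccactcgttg
Cox8a (ETS on the other strand at -57, GRCr8 chr1:213833657-213833697, minus strand): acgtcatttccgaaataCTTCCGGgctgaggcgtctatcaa
A match is a description of these letters in this window and is not evidence of binding.

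The chain was expressed at high level in every library. Of the 83 members, 79 had a mean of at least 0.5 FPKM and entered the fit: 34 of complex I, 4 of complex II, 9 of complex III, 16 of complex IV and 16 of complex V. In the 8 libraries outside HC, the median member lay at 61.5 to 72.8 FPKM, against 7.42 to 8.52 FPKM for the median tested gene. The members summed to 6386 to 7252 FPKM in those 8 libraries. Median levels per gene differed between complexes: 35.1 to 43.3 FPKM for complex I, 51.8 to 60.6 for complex II, 54.1 to 66.4 for complex III, 96.1 to 132 for complex IV and 131 to 152 for complex V. These ranges did not overlap between complexes III and IV, while those of complexes II and III did. The lowest read number behind a tested member had a median of 2036 reads. Only 2 members had a library with fewer than 100 reads: Cox6b2, with a lowest number of 30, and Cox8b, with a lowest number of 15. Counting error is thus small for nearly all members, but not for Cox6b2 and Cox8b.

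The 4 members below the filter were Ndufa1 (0 to 0.042 FPKM), Atp5f1 (0.014 to 0.231 FPKM), Cox6c-ps1 and Cox8c, the testis form of subunit 8. The last 2 were listed at 0 in all libraries. Ndufa1 and Atp5f1, a subunit of the membrane arm of complex I and a stalk subunit of complex V, each have 2 copies in the genome by the table, so their reads may have been lost or split between copies and their values are uncertain. The table gives 1 copy each for Ndufa10, Ndufa10l1 and the c-ring genes Atp5mc1, Atp5mc2 and Atp5mc3, but these are close relatives within each set, and reads could have been split between them. Cox7a1 and Cox7b2 were not analysed here.

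The main pattern in these data was a split between the 2 untreated libraries. HC 1 had the highest level of the 10 libraries for 69 of the 79 members (87.3%), against 13.5% of all tested genes. HC 2 had the lowest level for 65 members (82.3%), against 25.6% of all tested genes. Both held for 60 members (75.9%), against 3.82% of all genes. The median ratio of HC 1 to HC 2 was 2.16 over the members and 0.966 over all genes tested. The summed level of the members was 10126 FPKM in HC 1 and 4633 FPKM in HC 2, on either side of every injured library.

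The split ran through all 5 complexes. The median HC 1 to HC 2 ratio was 2.08 for complex I, 2.31 for complex II, 2.48 for complex III, 1.91 for complex IV and 2.33 for complex V. HC 1 was the highest and HC 2 the lowest library for 26 of 34 members of complex I, 3 of 4 of complex II, 9 of 9 of complex III, 9 of 16 of complex IV and 13 of 16 of complex V. HC 1 was below HC 2 for 5 members, all of complex IV: Cox4i2, Ndufa4l2, Cox8a, Cox6a1 and Cox6b2.

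**Figure D1:**
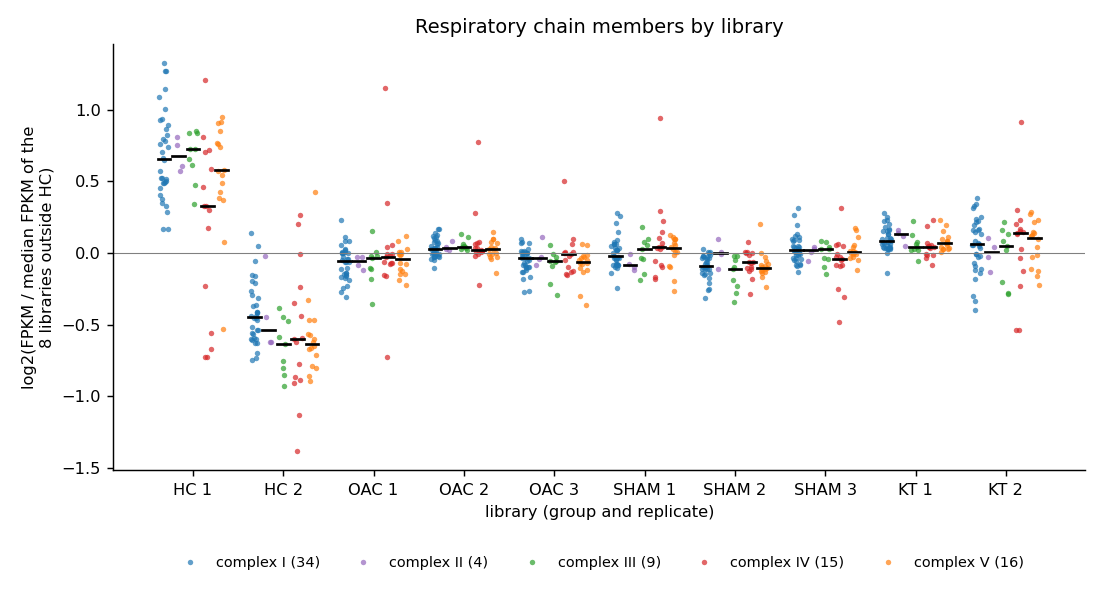
Each point is a tested member (78 of 79; Cox8b, whose level spans a wider range, is left out), given as log2 of its FPKM over its median in the 8 libraries outside HC (vertical axis), by library (horizontal axis) and coloured by complex; black bars are medians. Points of HC 1 lie mostly above 0 and points of HC 2 mostly below it, while the 8 injured libraries lie close to 0.

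Outside HC the members hardly varied. The highest of the 8 injured libraries was less than 1.5 times the lowest for 70 of 79 members (88.6%), against 48.6% of all tested genes, and the median of this ratio was 1.26 for members and 1.51 for all genes. By complex it stayed under 1.5 for 31 of 34, 4 of 4, 9 of 9, 11 of 16 and 15 of 16 members in the order I to V. The median SD between libraries of a group, on the log2(FPKM + 1) scale, was 0.07 in OAC, 0.10 in SHAM and 0.10 in KT for members, and 0.78 in HC. For all genes tested the same SDs were 0.11, 0.13, 0.13 and 0.16. The background was not matched for level. In the 8 injured libraries the median member lay at 61.5 to 72.8 FPKM and the median tested gene at 7.42 to 8.52 FPKM. Counting error is larger in low genes, and its part in these differences was not tested.

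Muscle transcripts moved with HC 1. The 29 muscle markers took 10.8% of the summed FPKM of HC 1 and 0.147% of that of HC 2. Mylpf, a fast muscle myosin light chain, was at 5393 FPKM in HC 1, 49.7 FPKM in HC 2 and 1294 FPKM in SHAM 3. Acta1, skeletal muscle actin, was at 3627 FPKM in HC 1, 27.6 FPKM in HC 2 and 628 FPKM in SHAM 3. None of the markers was at 0 in HC 1 or HC 2, and 1 was at 0 in SHAM 3. The part of muscle RNA in the high levels of HC 1 was not tested.

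The low levels of HC 2 came with muscle marker levels inside the range of the injured libraries. HC 2 had 479 FPKM of muscle markers and a member median of 49.6 FPKM, whereas SHAM 1 had 471 FPKM and a member median of 69.7 FPKM. SHAM 2, with fewer muscle transcripts than HC 2 (301 FPKM), had a member median of 62.7 FPKM. HC 2 also had the highest chondrocyte marker sum of the 10 libraries, 22295 FPKM, against 13279 FPKM in HC 1 and 8626 to 13505 FPKM outside HC. The mean log2(FPKM + 1) of the 11 markers was not highest in HC 2. It was 7.74 there, against 7.95 in SHAM 1, 7.77 in OAC 3, 7.77 in KT 2 and lower values in the remaining libraries. In bulk tissue, fewer cells of a type and less RNA per cell cannot be told apart.

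**Figure D2:**
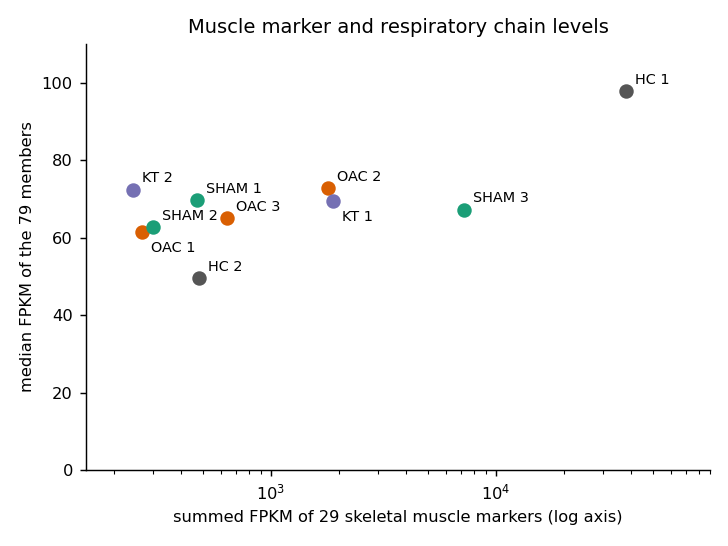
Each point is a library, with the summed FPKM of 29 skeletal muscle markers on a log horizontal axis and the median FPKM of the 79 tested members on the vertical axis, coloured by group. HC 1 lies alone at the upper right (37965 and 97.8 FPKM), HC 2 lies lowest (49.6 FPKM), and SHAM 3 lies among the other injured libraries in member level, with 7246 FPKM of muscle markers.

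The first comparison asked how the chain differs 4 weeks after papain injury from untreated cartilage. With all libraries, 3 members rose in OAC against HC (Cox8a, Cox6a1 and Atp5if1), 1 fell (Atp5s), and 75 did not pass the test (limma on log2(FPKM + 1), Benjamini-Hochberg adjusted p under 0.05 over 11282 genes). Among all tested genes 29.7% were called (23.4% higher and 6.27% lower), against 5.06% of the members. Their median log2 difference was -0.07, against 0.14 for all genes. The groups did not overlap for 7 members, against 56.3% of all tested genes: Cox6a1, Cox8a, Cox7a2l, Cox6b2 and Atp5if1 were higher, and Atp5s and Ndufv3 were lower, in every OAC library than in either HC library.

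Cox8a, the common form of the smallest complex IV subunit (rn6 chr1:222466575-222468896, minus strand), was at 92.0 and 101 FPKM in HC and at 152, 160 and 153 FPKM in OAC. Its levels were 160, 145 and 144 FPKM in SHAM and 151 and 170 FPKM in KT. All 8 injured libraries were above both HC libraries. The log2 difference was 0.68 (SE 0.11, adjusted p 0.00279) in OAC, 0.63 (SE 0.11, adjusted p 0.00339) in SHAM and 0.73 (SE 0.12, adjusted p 0.00543) in KT against HC. These 3 comparisons share the HC libraries and are not independent.

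Cox6a1, the common form of subunit 6a (rn6 chr12:47024442-47027495, plus strand), was at 130 and 138 FPKM in HC and at 206, 210 and 201 FPKM in OAC. It was at 230, 199 and 196 FPKM in SHAM and at 215 and 229 FPKM in KT, again above both HC libraries in 8 of 8. The log2 difference was 0.61 (SE 0.11, adjusted p 0.00485) in OAC, 0.63 (SE 0.11, adjusted p 0.00398) in SHAM and 0.72 (SE 0.12, adjusted p 0.00624) in KT against HC. Cox8a and Cox6a1 stayed called in OAC and in SHAM against HC under every alternative run. In KT against HC both lost the call when only those 2 groups were fitted (adjusted p 0.148 and 0.149), and Cox6a1 also lost it under quantile normalization (adjusted p 0.0604).

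Atp5if1 encodes the inhibitor that blocks ATP hydrolysis by complex V when the membrane potential collapses (rn6 chr5:150719570-150723287, minus strand). Its level was 110 and 90.9 FPKM in HC, 157, 155 and 123 FPKM in OAC, 159, 183 and 158 FPKM in SHAM, and 161 and 191 FPKM in KT. Every injured library was above both HC libraries. The log2 difference was 0.53 (SE 0.15, adjusted p 0.0314) in OAC, 0.73 (SE 0.15, adjusted p 0.00952) in SHAM and 0.81 (SE 0.17, adjusted p 0.0143) in KT against HC. The OAC call was lost without HC 2, OAC 1 or OAC 2 (adjusted p 0.139, 0.0894 and 0.0992) and under 5 other settings. The KT call was lost without KT 2 (adjusted p 0.0743) and under 3 other settings.

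Atp5s, the coupling factor, was the only member called lower and lies at low level (rn6 chr6:92057807-92076022, plus strand). It was at 4.31 and 3.09 FPKM in HC, 2.49, 2.09 and 1.86 FPKM in OAC, 1.91, 2.21 and 2.38 FPKM in SHAM, and 2.48 and 2.54 FPKM in KT. The log2 difference was -0.57 (SE 0.14, adjusted p 0.0176) in OAC, -0.56 (SE 0.14, adjusted p 0.0205) in SHAM and -0.41 (SE 0.16, adjusted p 0.102) in KT against HC. The OAC call was lost without HC 1, OAC 2 or OAC 3 (adjusted p 0.1002, 0.0536 and 0.0547) and under 3 other settings. The SHAM call was lost without HC 1, SHAM 1 or SHAM 2 (adjusted p 0.112, 0.0568 and 0.0529) and under 4 other settings.

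**Figure D3:**
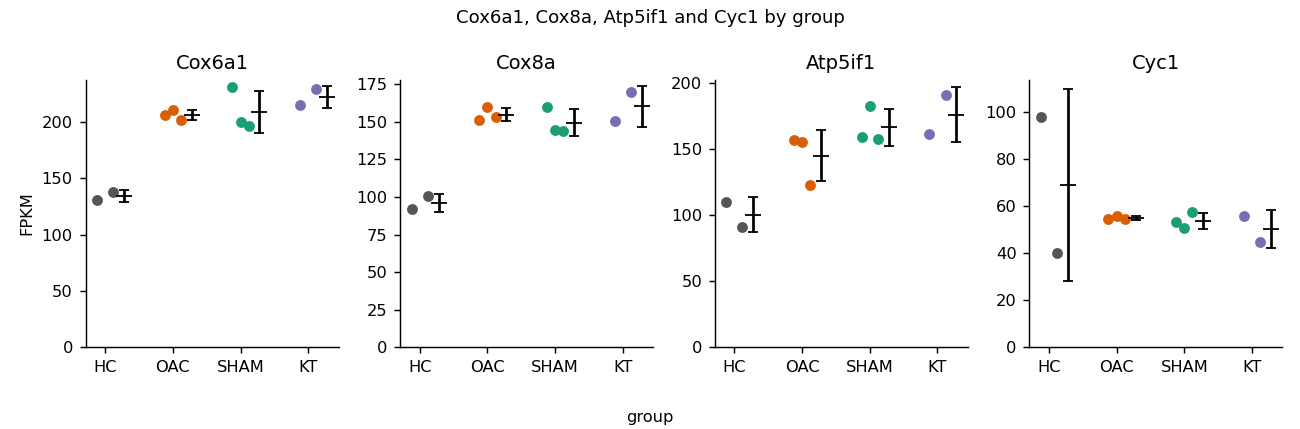
FPKM of Cox6a1, Cox8a, Atp5if1 and Cyc1 (vertical axes, from 0) in each library by group; points are libraries and bars give the group mean ± SD. For the first 3 genes both HC points lie below all injured points; for Cyc1, which stands for the bulk of the members, the HC points lie on either side of them.

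The same genes were called in SHAM against HC: 3 members rose and 1 fell, against 26.5% of all genes called (21.0% higher, 5.48% lower). The median log2 difference was -0.06, against 0.10 for all genes, and 7 members did not overlap, against 51.2% of all genes. In KT against HC 3 members rose (Cox8a, Cox6a1 and Atp5if1) and none fell, against 18.2% of all genes called (14.3% higher, 3.95% lower). At an unadjusted p under 0.05 (limma) there were 5 members, against 3861 of all 11282 genes. There the median was 0.02, against 0.09 for all genes, and 9 members did not overlap, against 54.7% of all genes.

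Each of the comparisons with HC turned on which HC library was kept. Without HC 1, 48 members rose in OAC against HC (background 20.2% of all genes higher), 47 in SHAM (19.4%) and 54 in KT (13.6%), and none fell. The medians were then 0.49, 0.51 and 0.59. Without HC 2, 59 members fell in OAC against HC (background 8.99% of all genes lower), 56 in SHAM (8.18%) and 44 in KT (7.32%), while 3, 3 and 4 rose. The medians were then -0.63, -0.62 and -0.54. A fit with a single HC library assumes that it varies like the other groups.

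By complex, the members that rose in OAC without HC 1 were 15 of 34 of complex I, 3 of 4 of complex II, 8 of 9 of complex III, 9 of 16 of complex IV and 13 of 16 of complex V. Those that fell in OAC without HC 2 were 28, 4, 8, 6 and 13 in the same order. Complex IV had the smallest median without HC 2, at -0.35 against -0.60 to -0.75 for the others. With HC 1, SHAM 3 and KT 1 left out together, a set planned for its muscle transcripts, 43 members rose in OAC (background 20.5% higher), 38 in SHAM (17.2%) and 32 in KT (7.06%) against HC 2, with none lower.

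**Figure D4:**
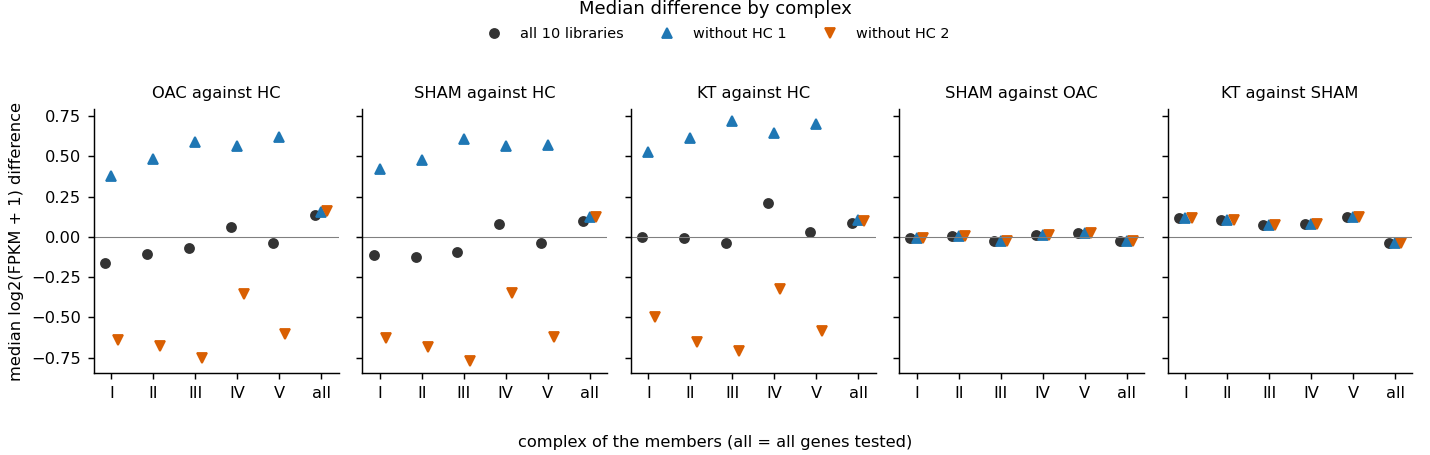
Median log2(FPKM + 1) difference (vertical axis) of the members of each complex, and of all tested genes, in 5 comparisons; circles use all 10 libraries, upward triangles leave out HC 1 and downward triangles leave out HC 2. In the comparisons with HC every complex lies above 0 without HC 1 and below 0 without HC 2. SHAM against OAC and KT against SHAM hold no HC library, so leaving out HC 1 or HC 2 cannot move their medians.

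The second comparison set cartilage 10 weeks after injury with the GFP vector against cartilage 4 weeks after injury. No member was called in SHAM against OAC (limma, background 1.16% of all genes). At an unadjusted p under 0.05 (limma) there was 1 member, against 1018 of all 11282 genes. The spread of each gene was estimated over all 10 libraries, so the member SD of 0.78 in HC enters it, against 0.07 in OAC and 0.10 in SHAM. The SEs and p-values of most members are therefore large for the spread within OAC and SHAM, and few small p-values do not show a lack of difference. The median log2 difference was 0.01, against -0.02 for all genes, and lay between -0.03 and 0.03 in each complex. The groups did not overlap for 7 members, 2 higher and 5 lower in SHAM, against 17.9% of all genes. Those lower included Cox6b2, Ndufb4, Ndufb6 and Ndufs8, and those higher were Atp5if1 and Atp5mc2.

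Cox6b2, the testis form of subunit 6b, was the member with the unadjusted p under 0.05. It was at 3.88, 2.99 and 2.46 FPKM in OAC, 1.64, 1.84 and 1.41 FPKM in SHAM, 1.64 and 1.20 FPKM in KT, and 1.96 and 2.01 FPKM in HC. All 3 OAC libraries were above the 7 others. These levels rest on few reads: 128, 81 and 67 in OAC and 40, 56 and 38 in SHAM. The log2 difference of SHAM against OAC was -0.63 (SE 0.14, adjusted p 0.104), and with array weights it passed the test (adjusted p 0.0421). Its common partner Cox6b1 was at 28.1 to 31.2 FPKM in the same 8 injured libraries.

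The third comparison asked how the Klotho and TGFBR2 vectors differ from the GFP vector. No member was called in KT against SHAM (limma, background 1.05% of all genes). None had an unadjusted p under 0.05 (limma), against 1646 of all 11282 genes. The shared spread again holds the HC libraries (member SD 0.78, against 0.10 in SHAM and in KT). The SEs and p-values of most members are thus large for the spread within SHAM and KT, and the lack of small p-values does not show a lack of difference. DESeq2 as run by the authors called none either, in the authors' deposited table. The median log2 difference was 0.11, against -0.04 for all genes, and 61 of 79 members lay above 0, against 4933 of 11282 genes. The groups did not overlap for 24 members, against 32.4% of all genes. All 24 were higher in KT, and 15.0% of all genes had every KT library above every SHAM library.

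These differences between KT and SHAM were small. Medians were 0.12 for complex I, 0.11 for complex II, 0.08 for complex III, 0.08 for complex IV and 0.13 for complex V. Across members the log2 difference ran from -0.30 to 0.33, and the largest was that of Ndufa4l2 (SE 0.38). With each library left out in turn the member median stayed between 0.07 and 0.12. Members without overlap between KT and SHAM included Sdhb, Sdhd, Ndufs3, Uqcr10, Cox6c and Atp5f1c. Sdhb was at 53.9, 58.3 and 58.9 FPKM in SHAM and at 64.7 and 63.1 FPKM in KT.

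Complex I couples NADH oxidation to proton pumping. Ndufs1, its largest iron-sulfur core subunit (rn6 chr9:69919865-69953182, minus strand), was at 49.9 FPKM in HC 1 and 20.2 FPKM in HC 2. In the injured groups it was at 26.1, 26.2 and 27.4 FPKM (OAC), 25.4, 24.4 and 26.3 FPKM (SHAM), and 28.0 and 23.7 FPKM (KT). All 8 injured values lay between the HC values. The log2 difference of OAC against HC was -0.25 (SE 0.29, adjusted p 0.539).

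Ndufv1, which binds NADH, was at 58.3 FPKM in HC 1, 30.0 FPKM in HC 2 and 26.1 to 36.8 FPKM in the injured libraries. HC 1 was again the highest library, while KT 2 was below HC 2. Ndufa11, a membrane-arm subunit and the highest member of the complex, was at 147 FPKM in HC 1, 98.3 FPKM in HC 2 and 112 to 150 FPKM elsewhere.

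The widest HC ratio in complex I was that of Ndufs3, another core subunit, at 3.46. Ndufv3, a small supernumerary subunit, did not show the split: it was at 16.3 and 15.9 FPKM in HC and at 12.5 to 15.4 FPKM in the injured libraries.

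Complex II, succinate dehydrogenase, also belongs to the citric acid cycle. Sdhb, its iron-sulfur subunit (rn6 chr5:159484378-159505062, plus strand), was at 87.3 FPKM in HC 1, 43.0 FPKM in HC 2 and 53.9 to 64.7 FPKM in the injured libraries. Its log2 difference of OAC against HC was -0.09 (SE 0.24, adjusted p 0.799). Sdha, the flavoprotein that oxidises succinate, was at 81.1 FPKM in HC 1, 52.5 FPKM in HC 2 and 48.6 to 56.8 FPKM in the injured libraries, so HC 2 was not the lowest there. The membrane anchors Sdhc and Sdhd were at 89.0 and 129 FPKM in HC 1 and at 32.9 and 49.6 FPKM in HC 2. Sdhc was the lowest member of the complex by its mean and Sdhd the highest.

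Complex III passes electrons from ubiquinol to cytochrome c, and HC 1 was highest and HC 2 lowest for each of its 9 members. Cyc1, cytochrome c1 (rn6 chr7:117409576-117411953, plus strand), was at 97.8 FPKM in HC 1 and 40.0 FPKM in HC 2. It was at 54.8, 55.9 and 54.4 FPKM in OAC, 53.2, 50.6 and 57.6 FPKM in SHAM, and 56.1 and 44.8 FPKM in KT. The 3 OAC values lay close together, and all 8 injured values lay between the HC values. The log2 difference of OAC against HC was -0.18 (SE 0.30, adjusted p 0.671).

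Uqcrfs1, the Rieske iron-sulfur protein, had the widest HC ratio of the complex, 3.44, with 113 FPKM in HC 1, 32.7 FPKM in HC 2 and 54.1 to 68.4 FPKM elsewhere. The core proteins Uqcrc1 and Uqcrc2 were at 64.9 and 108 FPKM in HC 1 and at 32.4 and 43.3 FPKM in HC 2. Uqcrh, a small hinge protein, was the highest member (112 to 240 FPKM) and Uqcrb the lowest (8.38 to 24.2 FPKM).

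Complex IV, cytochrome c oxidase, was the most uneven. Several of its subunits have tissue forms: Cox8b and Cox6a2 are the heart and skeletal muscle forms of subunits 8 and 6a, Cox4i2 is the lung and hypoxia form of subunit 4, and Ndufa4l2 is a hypoxia-induced relative of Ndufa4. Cox8b (rn6 chr1:213648787-213650247, minus strand) was at 245 FPKM in HC 1 and 8.73 FPKM in HC 2, a ratio of 28.1. It was at 0.672, 23.4 and 3.53 FPKM in OAC, 4.06, 2.38 and 40.0 FPKM in SHAM, and 33.5 and 1.36 FPKM in KT. HC 1, SHAM 3, KT 1 and OAC 2, the libraries with the most Cox8b, were also the 4 with the highest muscle marker sums. The log2 difference of OAC against HC was -3.10 (SE 1.78, adjusted p 0.216).

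The ratio of Cox8b to Cox8a was 2.67 in HC 1, 0.0868 in HC 2 and 0.00444 to 0.278 in the injured libraries. That of Cox6a2, which is outside the member list, to Cox6a1 was 3.68 in HC 1, 0.0687 in HC 2 and 0.00528 to 0.411 in the injured libraries. The common forms Cox8a and Cox6a1 thus exceeded the muscle forms in 9 of 10 libraries. The part of muscle RNA in these ratios was not tested.

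Cox4i1, the common subunit 4 and the highest member of complex IV, was at 304 FPKM in HC 1, 178 FPKM in HC 2 and 219 to 255 FPKM in the injured libraries. Cox4i2 ran the other way in HC, at 76.1 FPKM in HC 1 and 152 FPKM in HC 2. It was at 125, 125 and 126 FPKM in OAC, 128, 115 and 90.2 FPKM in SHAM, and 130 and 139 FPKM in KT. HC 1 and SHAM 3, with the most muscle transcripts, were the 2 lowest libraries, and HC 2 was the highest. The ratio of Cox4i2 to Cox4i1 was 0.250 in HC 1, 0.850 in HC 2 and 0.359 to 0.625 in the injured libraries. The log2 difference of OAC against HC in Cox4i2 was 0.22 (SE 0.26, adjusted p 0.539), and without HC 2 it passed the test (0.72, adjusted p 0.0227).

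Ndufa4 (rn6 chr4:38233680-38240848, minus strand) was at 194 FPKM in HC 1, 38.2 FPKM in HC 2 and 68.7 to 102 FPKM in the injured libraries. Its log2 difference of OAC against HC was 0.02 (SE 0.52, adjusted p 0.986). Ndufa4l2 was at 64.7 and 95.3 FPKM in HC, 57.8, 81.7 and 94.9 FPKM in OAC, 184, 96.2 and 80.4 FPKM in SHAM, and 112 and 180 FPKM in KT. Both KT libraries were above both HC libraries, while SHAM spanned the range. The log2 difference in Ndufa4l2 was 0.85 (SE 0.41, adjusted p 0.183) in KT against HC and 0.33 (SE 0.38, adjusted p 0.727) in KT against SHAM. The ratio of Ndufa4l2 to Ndufa4 was 0.335 in HC 1, 2.49 in HC 2 and 0.769 to 2.36 in the injured libraries.

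**Figure D5:**
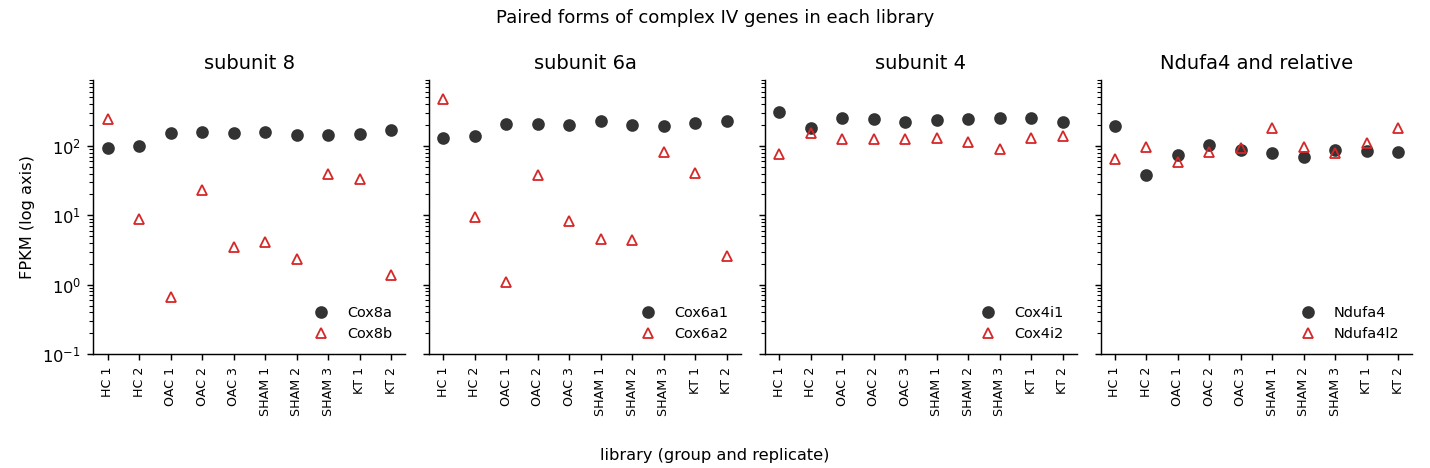
FPKM on a log vertical axis for 4 pairs of complex IV genes in each library: filled circles are the common form and open triangles the muscle or hypoxia-related form. Cox8b and Cox6a2 exceed Cox8a and Cox6a1 only in HC 1, and Cox4i2 comes close to Cox4i1 only in HC 2.

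Cox5a, a matrix-side subunit (rn6 chr8:62298358-62309765, plus strand), was at 125 FPKM in HC 1 and 27.3 FPKM in HC 2, a ratio of 4.57. It was at 90.8, 73.1 and 76.3 FPKM in OAC, 63.4, 66.7 and 88.7 FPKM in SHAM, and 69.6 and 49.2 FPKM in KT. Its log2 difference of OAC against HC was 0.43 (SE 0.51, adjusted p 0.546), and without HC 1 it was 1.51 (adjusted p 0.00569). Cox5b was at 162 FPKM in HC 1, 53.4 FPKM in HC 2 and 84.3 to 103 FPKM elsewhere. Cox7a2, the common form of subunit 7a, was at 21.0 and 13.4 FPKM in HC and 16.0 to 21.0 FPKM in the injured libraries.

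Cox7a2l, the supercomplex factor, was at 89.9 and 89.4 FPKM in HC and at 102 to 129 FPKM in the 8 injured libraries, above both HC libraries in each. The log2 difference was 0.25 (SE 0.13, adjusted p 0.172) in OAC, 0.31 (SE 0.13, adjusted p 0.104) in SHAM and 0.34 (SE 0.14, adjusted p 0.125) in KT against HC, so it did not pass the test.

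Complex V makes ATP from the proton gradient. Its catalytic beta subunit Atp5f1b (rn6 chr7:2504708-2511748, plus strand) was at 496 FPKM in HC 1 and 186 FPKM in HC 2. It was at 255, 270 and 255 FPKM in OAC, 277, 236 and 290 FPKM in SHAM, and 258 and 220 FPKM in KT, all between the HC values. The log2 difference of OAC against HC was -0.23 (SE 0.33, adjusted p 0.639). The alpha subunit Atp5f1a was at 283 FPKM in HC 1, 113 FPKM in HC 2 and 153 to 180 FPKM elsewhere.

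The c-ring genes differed in level and in the size of the split. Atp5mc2 was at 234 FPKM in HC 1, 177 FPKM in HC 2 and 210 to 258 FPKM elsewhere, so the injured libraries lay mostly around HC 1. Atp5mc1 was at 91.2 FPKM in HC 1, 34.2 FPKM in HC 2 and 48.6 to 62.5 FPKM elsewhere. Atp5mc3 was at 191 FPKM in HC 1, 80.7 FPKM in HC 2 and 112 to 137 FPKM elsewhere. The ratio of the inhibitor Atp5if1 to Atp5f1b was 0.221 in HC 1, 0.489 in HC 2, 0.482 to 0.616 in OAC, 0.544 to 0.772 in SHAM, and 0.623 and 0.868 in KT.

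Other genes of the pathway were taken from lists, with the same fit and background. Of 35 tested assembly factors, 1 rose in OAC against HC (2.86%, against 23.4% of all genes called higher). It was Pet100, a complex IV assembly factor, at 11.4 and 7.26 FPKM in HC and 12.7, 13.4 and 12.8 FPKM in OAC (limma adjusted p 0.0494). None of the 16 tested genes of the citric acid cycle and pyruvate dehydrogenase was called in any of the 5 comparisons. Among all genes 29.7%, 26.5% and 18.2% were called in OAC, SHAM and KT against HC. The shares were 1.16% in SHAM against OAC and 1.05% in KT against SHAM. Of 68 tested mitochondrial ribosomal proteins, 5 rose in OAC, 1 in SHAM and 7 in KT against HC, and none fell. These are 7.35%, 1.47% and 10.3% of the list, against 23.4%, 21.0% and 14.3% of all genes called higher. Of 80 tested cytosolic ribosomal proteins 3, 6 and 11 rose in the same order (3.75%, 7.50% and 13.8%), and none fell. Assembly factors summed to 522 FPKM in HC 1 and 322 FPKM in HC 2. The citric acid cycle list summed to 855 and 361 FPKM there, and the mitochondrial ribosomal proteins to 1472 and 1024 FPKM. Such HC differences enter the shared estimate of the spread, so few calls in these lists do not show a lack of difference.

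Of 18 tested regulators of mitochondrial biogenesis, 2 fell in all 3 comparisons with HC. Among all genes 6.27%, 5.48% and 3.95% were called lower in OAC, SHAM and KT against HC. Ppargc1a, the coactivator PGC-1alpha, was at 1.99 and 1.31 FPKM in HC and at 0.410 to 0.651 FPKM in the 8 injured libraries (adjusted p 0.00314, 0.00373 and 0.0163 in OAC, SHAM and KT). Ppara, a nuclear receptor for fatty acids, was at 1.03 and 0.820 FPKM in HC and at 0.325 to 0.464 FPKM in the injured libraries (adjusted p 0.0117, 0.0194 and 0.0499). Both HC libraries were above all injured libraries for both genes. The medians of this list were -0.09, -0.05 and -0.06.

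Of 13 tested electron and nucleotide carriers, 2 rose in OAC against HC and 1 in SHAM and in KT. These are 15.4%, 7.69% and 7.69% of the list, against 23.4%, 21.0% and 14.3% of all genes called higher. The list summed to 1543 FPKM in HC 1 and 486 FPKM in HC 2, and this difference enters the shared spread, so few calls do not show a lack of difference. Slc25a5, an ADP/ATP carrier of dividing cells, was at 31.5 and 35.2 FPKM in HC and at 81.0 to 99.5 FPKM in the 8 injured libraries (adjusted p 0.000656, 0.000178 and 0.00105 in OAC, SHAM and KT). Its muscle and heart relative Slc25a4 was at 754 FPKM in HC 1, 129 FPKM in HC 2 and 125 to 204 FPKM elsewhere. Dhodh, the enzyme of pyrimidine synthesis that feeds ubiquinone, was at 3.38 and 2.78 FPKM in HC and 4.73 to 5.16 FPKM in OAC (adjusted p 0.00721). Cytochrome c, Cycs, followed the members, at 26.1 FPKM in HC 1, 7.28 FPKM in HC 2 and 11.5 to 17.4 FPKM elsewhere.

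Of 10 tested uncoupling and antioxidant genes, 2 rose and 1 fell in OAC, 3 rose and 1 fell in SHAM, and 2 rose in KT against HC. Those that rose were 20%, 30% and 20% of the list, against 23.4%, 21.0% and 14.3% of all genes called higher. All genes called lower were 6.27%, 5.48% and 3.95%. Prdx5, a peroxiredoxin, was at 72.5 and 46.2 FPKM in HC and 94.5 to 140 FPKM in the injured libraries (adjusted p 0.00975 in OAC). Ucp2, an inner-membrane carrier of the uncoupling family, was at 88.5 and 52.8 FPKM in HC, 147 to 206 FPKM in OAC, 145 to 207 FPKM in SHAM, and 112 and 76.2 FPKM in KT. Sod2, mitochondrial superoxide dismutase, was at 58.1 and 35.5 FPKM in HC and 92.8 to 133 FPKM in SHAM (adjusted p 0.00632). The gene that fell in OAC was Aox1, an aldehyde oxidase, which is in the list but is neither an uncoupling nor an antioxidant gene. It was at 12.3 and 17.2 FPKM in HC and 7.88 to 9.17 FPKM in OAC (limma adjusted p 0.0117). No gene of these lists was called in SHAM against OAC or in KT against SHAM.

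Many markers of other cells rose in OAC and SHAM against HC, and fewer passed the test in KT against HC, where Cox8a, Cox6a1 and Atp5if1 were also called. In OAC against HC the test called higher 10 of 11 macrophage, 9 of 9 neutrophil, 9 of 11 erythroid, 8 of 10 osteoclast and 10 of 10 cell cycle genes. All genes called higher there were 23.4%. In SHAM against HC the counts were 10, 9, 11, 6 and 10 in the same order, against 21.0% of all genes called higher. In KT against HC they were 10, 3, 2, 1 and 5, against 14.3% of all genes called higher. The summed macrophage level was 827 to 1069 FPKM in HC, 2531 to 3637 in OAC, 4641 to 7851 in SHAM and 4037 to 5176 in KT. The summed neutrophil level was 2050 to 2568 FPKM in HC, 12675 to 16252 in OAC, 10228 to 12242 in SHAM and 3684 to 8348 in KT. The summed cell cycle level was 49.0 to 84.8 FPKM in HC, 179 to 255 in OAC, 163 to 219 in SHAM and 109 to 161 in KT. The part of these cells in the calls was not tested.

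The remaining marker lists moved less evenly. Of 11 chondrocyte markers 3 rose (27.3%) and 3 fell in OAC against HC, against 23.4% of all genes called higher and 6.27% lower. Of 28 tested muscle markers 1 fell, with a median log2 difference of -2.86 that rests on HC 1. Of 5 tested adipocyte markers 1 fell in each comparison with HC, against 6.27%, 5.48% and 3.95% of all genes in OAC, SHAM and KT.

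In the authors' deposited table, 81 members had a fold change. It called 4 of them in HC vs. OAC (2 higher in each group; background 25.7%), none in OAC vs. SHAM (3.63%), none in KT vs. SHAM (3.66%) and 4 in HC vs. SHAM (1 higher in HC and 3 in SHAM; 20.5%). The median log2 fold change of the members in the authors' deposited table was 0.38 for HC over OAC (all transcripts 0.03), 0.33 for HC over SHAM (0.04), -0.05 for OAC over SHAM (0.00) and 0.15 for KT over SHAM (-0.01). These are DESeq2 folds, an unlike measure to the log2(FPKM + 1) medians of -0.07 for OAC and -0.06 for SHAM against HC. They average over HC 1 and HC 2, whose members summed to 10126 and 4633 FPKM, and none is given without HC 1. The difference in size between the measures was not tested. In the authors' deposited table, Cox8a had a log2 fold change of HC over OAC of -0.50 (adjusted p 3.69e-05) and Cox6a1 of -0.43 (adjusted p 3.51e-05). For Atp5if1 that table gave -0.34 (adjusted p 0.155), which does not pass, against OAC and -0.58 (adjusted p 0.0055) against SHAM. For Atp5s the authors' deposited table gave 0.97 (adjusted p 0.00271) for HC over OAC. The fourth call in HC vs. OAC of the authors' deposited table was Ndufv3, higher in HC (adjusted p 0.0243).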

How the data were processed

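PolyA RNA from 10 knee cartilage libraries was sequenced as stranded paired-end reads, per the labels' protocols. Tools in the submitters' processing notes are STAR 2.5.3a, FastQC 0.11.2, DESeq2 1.18.1 and HOMER, and the build is rn6. The authors deposited a table of FPKM per RefSeq transcript with its length in bases, and a table of log2 fold changes, p-values and adjusted p-values for 4 comparisons. In that table a positive log2 fold change means higher in the first-named group, as checked against the FPKM.

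Groups came from the sample titles. FPKM was transformed to log2(FPKM + 1). The fit took the genes whose mean reached 0.5 FPKM. It compared groups with limma 3.58.1 (R 4.3.3, intensity trend, all 10 libraries sharing 1 estimate of the spread). It was run on simulated data with the same dispersion in every group. That setting does not cover the unequal spread here, where the median member SD was 0.78 in HC and 0.07 to 0.10 in the other groups. Calls are at a Benjamini-Hochberg adjusted p under 0.05 over 11282 genes. A fold on this scale understates the change of low genes. All 5 comparisons share groups. FPKM values came out as whole reads within 0.15 of a read for 100% of low values, which gave the depth and an alternative voom fit on those reads. Depth limits only the lowest members.

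Named members are those called, the core and isoform genes, and the highest and lowest of each complex; some values are not reported here. The members and lists were chosen with earlier results of these data known. Alternatives covered the pseudocount, filter, scaling, test, replicate block and left-out libraries. Promoters are from RefSeq (GRCr8); protein sequences were not used here.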

Additional observations from a re-analysis of the deposited data

How the results depend on the processing

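Leaving out single libraries decided the comparisons with HC. The number of members called ran from 2 to 62 in OAC against HC, from 3 to 59 in SHAM against HC and from 2 to 54 in KT against HC, and the median log2 difference from -0.63 to 0.49, from -0.62 to 0.51 and from -0.54 to 0.59; the ends of each median are the fits without HC 2 and without HC 1. In KT against SHAM and SHAM against OAC no left-out library gave a call. With HC 1, SHAM 3 and KT 1 left out together, 43, 38 and 32 members were called in OAC, SHAM and KT against HC, with medians of 0.49, 0.47 and 0.61. Fitting only the compared groups gave 2 calls in OAC against HC and 0 in KT against HC (limma; 5 members had an unadjusted p under 0.05 in the full fit), where fewer samples enter. Quantile normalization gave 7 calls in SHAM against HC, and array weights gave 1 in SHAM against OAC; the cause was not tested.

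The sign of most differences in OAC against HC depended on the HC library kept: 74 of 79 members lay above 0 without HC 1 and 7 without HC 2. With HC 1, SHAM 3 and KT 1 out, the log2 difference was 0.38 for Ndufs1, 0.41 for Sdhb and 0.45 for Cyc1. With single libraries out it ran from -0.89 to 0.38 for Ndufs1, from -0.59 to 0.41 for Sdhb, from -0.82 to 0.45 for Cyc1, from -0.93 to 0.48 for Atp5f1b, from -0.64 to 1.51 for Cox5a and from -1.14 to 1.17 for Ndufa4. Median-of-ratios scaling moved the median of all genes in OAC against HC from 0.14 to -0.02 and that of the members from -0.07 to -0.25; in KT against HC the member median moved from 0.02 to -0.10. Quantile normalization gave member medians of -0.23, -0.30 and -0.23 in OAC, SHAM and KT against HC. In SHAM against OAC, where the median was 0.01, quantile normalization gave -0.03 and array weights -0.02.

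No replicate number is tied to an animal or day by the labels. Correlations of the deviations from the group means ran from -0.48 to 0.49 for same-numbered libraries and from -0.71 to 0.71 for differently numbered ones. In groups of 2 the deviations mirror each other, so these values cannot decide whether the numbers pair the libraries. With the replicate number as a block the fit called 4 members in OAC against HC, 3 in SHAM against HC, 3 in KT against HC, and 0 in SHAM against OAC and KT against SHAM. Under the block Atp5s, the only member called lower, was no longer called in OAC or SHAM against HC (adjusted p 0.0576 and 0.0650), and Cox6b2 was called higher in OAC (adjusted p 0.0479).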

Other observations

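Among the members, the HC 1 to HC 2 ratio was widest for Cox8b (28.1), Ndufa4 (5.06), Cox5a (4.57), Atp5f1e (3.51) and Ndufs3 (3.46), and lowest for Cox4i2 (0.502), Ndufa4l2 (0.679), Cox8a (0.915) and Cox6a1 (0.945). Atp5f1e, the epsilon subunit of the ATP synthase rotor stalk, was at 472 FPKM in HC 1, 134 FPKM in HC 2 and 212 to 277 FPKM in the injured libraries. The citric acid cycle list followed the members, with summed levels of 361 and 855 FPKM as the lower and higher HC library and 423 to 515 FPKM in the injured libraries.

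The ratio of Cox6a1 to Cox6c, a subunit with no tissue form among the members, was 0.368 in HC 1 and 1.07 in HC 2, and 0.853 to 0.976 in the 8 injured libraries. The ratio of Cox8a to Cox6c was 0.260 in HC 1, 0.779 in HC 2 and 0.619 to 0.718 in the injured libraries. Within the chain these genes were thus highest relative to Cox6c in HC 2, although their own FPKM was lower in HC than in any injured library.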
